A study of Mus musculus with 6 samples.

Results

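Hepatokines are proteins that the liver secretes into the blood and that act on other organs. The 9 hepatokine genes described here, Fgf21, Gdf15, Angptl4, Angptl8, Fetub, Ahsg, Selenop, Lect2 and Inhbe, were taken by gene symbol from the 55487 genes of the deposited tables, and each symbol matched 1 gene. Their transcripts were measured by poly(A) RNA sequencing in the livers of male mice of the strain labelled C57/Bl6J on a high-fat diet, with 3 control and 3 mutant libraries. The control genotype label gives a Cre transgene under the albumin promoter (Alb cre +/-), which is active in hepatocytes, and the mutant label adds an Rxra allele written RXRa f/f to the same transgene. In the titles the controls appear as WT and the mutants as Cre, and the design text names the mutants by the protein change S65A, so the allele is described differently in different places. Neither an age nor any pooling of animals is stated in the labels. Liver cells in which this Cre is not active would keep an unrecombined allele, and RNA of all liver cells entered each library. Whether the allele recombined cannot be seen in totals per gene.

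The 9 proteins have distinct roles. FGF21 is a hormone of fasting and of nutrient stress that acts through FGF receptors with the co-receptor β-Klotho, and its gene is a known target of both PPARα, which binds DNA as a dimer with RXRα, and the stress-induced factor ATF4. GDF15 is a stress cytokine that lowers food intake through the hindbrain receptor GFRAL. ANGPTL4 and ANGPTL8 restrain lipoprotein lipase, the enzyme that unloads triglyceride from circulating lipoproteins. Fetuin-A, the product of Ahsg, and fetuin-B, the product of Fetub, are cystatin-like plasma proteins. Selenoprotein P, encoded by Selenop, carries selenium from the liver to other organs. LECT2 is a chemotactic protein that is raised in fatty liver, and Inhbe encodes the activin βE subunit, a signal from liver to fat tissue.

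Library totals lay between 35847386 and 43162557 estimated counts, and all 9 genes passed the filter on low counts. TPM, a transcript abundance that sums to the same total in every library, corrects for gene length and is used to compare genes with each other, and the fold changes come from edgeR's quasi-likelihood test on counts after TMM scaling, which sets the typical gene equal in both groups. CPM are counts scaled by library size after TMM. The major urinary protein (Mup) genes took 1.85% to 3.09% of the counts in the controls and 12.8% to 16.9% in the mutants. Scaled by library totals alone, the median over all tested genes lay at a log2 fold change of -0.40, and at -0.21 with the Mup genes left out of the totals, and limma on log2(TPM + 1) gave -0.485. The 9 hepatocyte markers found in the tables, of 10 listed, summed to 74000 to 85600 TPM in the controls and 59800 to 66500 TPM in the mutants, with none at 0. After TMM scaling 5 of these 9 were called higher and 0 lower, with a median log2 fold change of 0.53.

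Of the 9 hepatokine genes, 4 fell in the mutant livers (Gdf15, Fgf21, Inhbe and Angptl8), 3 rose (Angptl4, Fetub and Ahsg), and 2 (Lect2 and Selenop) did not pass at an adjusted p under 0.05. Across all 14286 tested genes 13.5% were called, 6.82% lower and 6.64% higher. The CPM of the groups did not overlap for the 7 called genes, against 34.9% of all genes, and their TPM did not overlap for 7 genes, all but Fetub and Ahsg, against 66.4%. The median log2 fold change of the 9 genes was -0.40, against 0.000249 for all genes. A change of at least 2-fold was called for 3 of the 9 (Gdf15, Fgf21 and Angptl4) and for 5.77% of all genes. The 4 decreases kept their direction in all alternatives, and so did the 3 increases, but the sizes of both depended on the scaling. At library totals 1 of the 9 was called higher and 6 lower, where 2.05% and 31.5% of all genes were, and limma on log2(TPM + 1) gave the same 1 and 6, where 1.88% and 63.6% of all genes were called. Without the Mup genes in the totals 3 of the 9 were called higher and 5 lower (2.85% and 13.8% of all genes). DESeq2 called 3 higher and 4 lower (7.86% and 9.27% of all genes). Without mutant replicate 1 only 4 of the 9 genes were called, 3 of them higher and only Gdf15 lower. Over all genes 882 of 14840 were then called, 426 higher and 456 lower, against 1923 of 14286 with all libraries. Without control replicate 2 only Gdf15 and Fgf21 of the 9 were called lower, and over all genes 956 of 14631 were called, 491 of them lower.

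**Figure D1:**
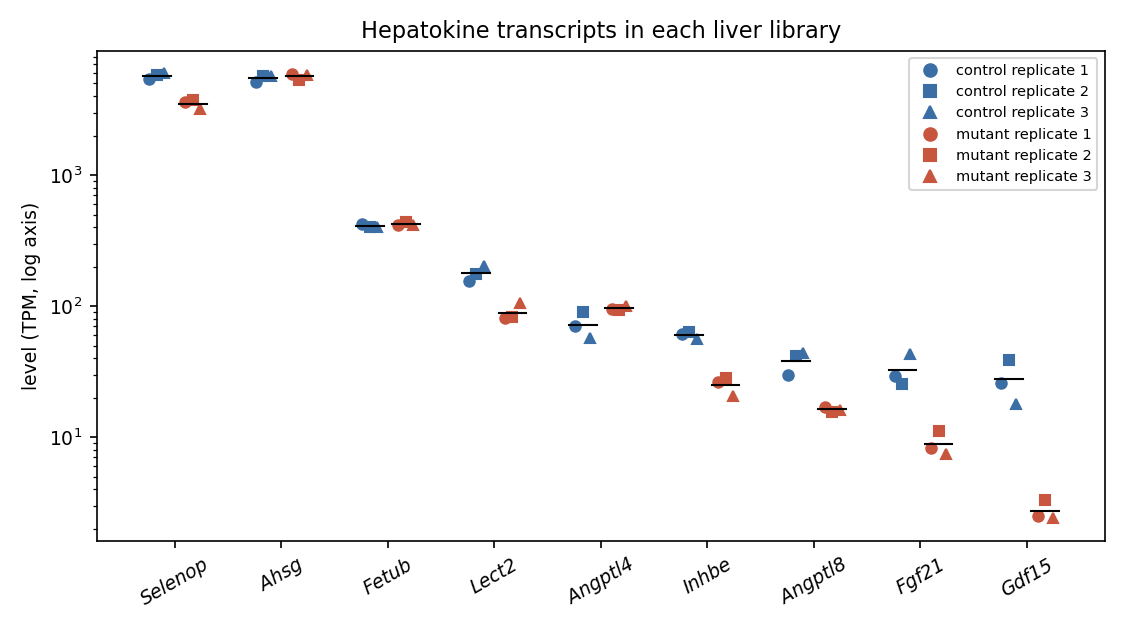
Transcript level in TPM on a log axis for the 9 genes in each library, with controls in blue, mutants in red and a black bar at each group mean. Gdf15 falls from 18 to 38.8 TPM in the controls to 2.4 to 3.31 TPM in the mutants, whereas Ahsg and Fetub overlap between the groups on this scale.

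The sequences before the RefSeq start sites are shown because Fgf21, Angptl8 and Inhbe share a short motif in them. ATF4 and its relatives bind the C/EBP-ATF response element, searched here as TGATGNAA on both strands of the 250 bases before each RefSeq start site (build GRCm38.p6). RefSeq promoter sequences were matched for 8 of the 9 genes, and Angptl4 was not matched. The motif was found in Fgf21, Angptl8 and Inhbe, and in 3.91% of all 27025 genes. No window of Gdf15, the gene that fell most, held it, and a link between the motif and the falls was not tested. The motif begins 139 bases before the start in Fgf21, 130 in Angptl8 and 181 in Inhbe, read along the gene. The matches with 10 bases on each side are given on the strand of the gene, with the match in capitals; the reverse complement TTGCATCA stands in Fgf21 and Inhbe.
Fgf21, chr7:45615612-45615639, minus strand: gacccccccaTTGCATCAtccgtccagg
Angptl8, chr9:21835370-21835397, plus strand: gccatcagtcTGATGCAAtggctgagcc
Inhbe, chr10:127352012-127352039, minus strand: atcctctttcTTGCATCAtgcatgtcca

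The whole 250 bases before the start site follow for Fgf21 and Angptl8, again with the match in capitals, to show its surroundings. For Inhbe the RefSeq start lies inside the gene as annotated by GENCODE, so its match is upstream of the RefSeq start alone and lies within the GENCODE gene, and only the match is given.
Fgf21, chr7:45615491-45615740, minus strand: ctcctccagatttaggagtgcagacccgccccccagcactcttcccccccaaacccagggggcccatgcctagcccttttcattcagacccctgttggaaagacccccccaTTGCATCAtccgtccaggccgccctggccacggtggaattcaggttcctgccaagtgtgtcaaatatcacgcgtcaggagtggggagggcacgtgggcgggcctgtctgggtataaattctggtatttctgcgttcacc
Angptl8, chr9:21835260-21835509, plus strand: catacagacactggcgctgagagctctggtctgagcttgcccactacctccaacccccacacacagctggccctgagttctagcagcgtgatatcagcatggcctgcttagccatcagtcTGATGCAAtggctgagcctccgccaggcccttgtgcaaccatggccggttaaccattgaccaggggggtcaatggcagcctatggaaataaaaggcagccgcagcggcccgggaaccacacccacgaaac

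Other motifs were searched in the same windows. The direct repeat of the half-site with 1 base between (DR1), bound by PPARα with RXRα and by other nuclear receptors, was in 0 of the 8 genes and in 0.0407% of all genes. Its half-site AGGTCA, which is also part of that repeat, was in Gdf15 and in 15.8% of all genes. The E-box CACGTG was in Fgf21 and Gdf15 and in 6.86% of all genes. In Gdf15 it lay before a RefSeq start inside the gene as annotated by GENCODE, and not in the window upstream of that gene. A match to letters is a description of the sequence, not a measured binding site, and known elements further away lie outside these windows.

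Gdf15 showed the largest change of the 9 genes. Its level was 25.8, 38.8 and 18 TPM in control replicates 1 to 3 and 2.48, 3.31 and 2.4 TPM in mutant replicates 1 to 3. All mutant values lay far below the lowest control, and control replicate 2 was the highest of the 6. After TMM scaling Gdf15 fell from 19.1 ± 7.43 to 2.87 ± 0.659 CPM (SD, n = 3 each), 6.67-fold, a log2 fold change of -2.74 ± 0.31 (SE, edgeR adjusted p = 0.00152). The change exceeded in size that of 98.9% of tested genes, and leaving out single libraries moved it only between -2.97 and -2.40. Gdf15 (ENSMUSG00000038508.7) lies on chromosome 8, bases 70629393 to 70632456 of mm10, on the minus strand.

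Macrophages and other stressed cells can also make GDF15, and some markers of several other cell types fell with it. Of 10 markers of monocyte-derived macrophages 5 fell and 0 rose, their summed level was 208 to 270 TPM in the controls and 71.7 to 83.6 TPM in the mutants, and no marker was at 0. Of 8 stellate cell markers 5 fell and 0 rose, with sums of 169 to 206 and 66 to 71.9 TPM, and of 8 Kupffer cell markers 2 fell, with sums of 286 to 405 and 92 to 173 TPM, again with none at 0. The other 5 macrophage, 3 stellate cell and 6 Kupffer cell markers did not pass after TMM scaling. The sums are in TPM, a scale on which the hepatocyte marker sum was also lower in the mutants (59800 to 66500 against 74000 to 85600 TPM). In whole liver, fewer cells of a type and less RNA per cell cannot be told apart. The part of these cells in the fall of Gdf15 was not tested.

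Fgf21, whose upstream sequence holds the match shown above, was the other stress hormone that fell. Its level was 29.3, 25.4 and 43.3 TPM in control replicates 1 to 3 and 8.19, 11.1 and 7.49 TPM in mutant replicates 1 to 3. The groups did not overlap, and here control replicate 3 was the highest, the library with the lowest Gdf15 of the controls. The fall was 2.40-fold after TMM scaling, from 15.2 ± 4.21 to 6.33 ± 1.67 CPM (SD, n = 3 each), a log2 fold change of -1.26 ± 0.25 (SE, edgeR adjusted p = 0.0154). Without mutant replicate 1 the adjusted p was 0.0611 at a log2 fold change of -1.17. Fgf21 (ENSMUSG00000030827.5) is on chromosome 7, bases 45613886 to 45615490, minus strand.

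Of the receptors and partners of FGF21 and GDF15, 7 of 12 genes were tested. Of these 2 rose and 1 fell, and the median log2 fold change was 0.25. Fgfr1, the receptor through which FGF21 acts in fat and brain, rose from 3.55 ± 0.628 to 14.4 ± 5.55 CPM (log2 fold change 2.02 ± 0.30, edgeR adjusted p = 0.0049). Its values were 1.64, 1.22 and 1.74 TPM in the controls and 5.87, 4.01 and 2.53 TPM in the mutants, low in all libraries but without overlap. Fgfr2 fell from 27.1 ± 1.70 to 16.1 ± 2.19 CPM, and Fgf1, a fibroblast growth factor that lowers blood glucose, rose from 92.5 ± 11.2 to 148 ± 23.6 CPM. The call of Fgf1 was lost at library totals, where its log2 fold change was 0.29, and without control replicate 2, control replicate 3 or mutant replicate 1. Klb, which encodes β-Klotho, had 29.5 ± 3.53 and 35.7 ± 4.27 CPM and did not pass (edgeR adjusted p = 0.227). Fgf15, Gfral and Ret were listed at 0 in every library.

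Angptl4 moved against Fgf21, although both are textbook PPARα targets. It had 69.9, 89.8 and 56.9 TPM in control replicates 1 to 3 and 95, 93.5 and 101 TPM in mutant replicates 1 to 3. The mutant libraries were close together and just above the highest control, replicate 2, which was also the highest control for Gdf15. Angptl4 rose 2.02-fold after TMM scaling, from 90.9 ± 21.5 to 184 ± 8.05 CPM (SD, n = 3 each), a log2 fold change of 1.01 ± 0.16 (SE, edgeR adjusted p = 0.00646). At library totals the log2 fold change was 0.62 (edgeR adjusted p = 0.0207), and on log2(TPM + 1) it was 0.44 (limma adjusted p = 0.0377, and 0.0944 with no filter on low values). Angptl4 (ENSMUSG00000002289.16) lies on chromosome 17, bases 33773750 to 33781830, minus strand.

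Angptl8 fell by a smaller amount. Its values were 29.7, 41.4 and 44.1 TPM in control replicates 1 to 3 and 17, 15.6 and 16.2 TPM in mutant replicates 1 to 3, without overlap and with the mutants nearly equal. After TMM scaling it went from 15.1 ± 2.90 to 9.70 ± 0.161 CPM (SD, n = 3 each), 1.55-fold lower, a log2 fold change of -0.64 ± 0.17 (SE, edgeR adjusted p = 0.0400). This call was close to the threshold, and it was lost on leaving out any single library except control replicate 1, with adjusted p from 0.0864 to 0.128. The log2 fold change of Angptl8 was -1.03 at library totals (edgeR adjusted p = 0.00373) and -1.17 on log2(TPM + 1) (limma adjusted p = 0.00118). Angptl8 (ENSMUSG00000047822.8, chromosome 9, bases 21835510 to 21837347, plus strand) lies within Dock6, a guanine nucleotide exchange factor gene on the opposite strand, with which it shares 0 exonic bases. Dock6 had 2.07, 6.29 and 7.18 TPM in control replicates 1 to 3 and 1.88 to 2.09 TPM in the mutants, so the control with the lowest Angptl8 also had the lowest Dock6. No source used here says whether the counting used strand, and the part of Dock6 reads in Angptl8 was not tested.

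Lpl, the lipase that these proteins restrain, fell from 36.3 ± 5.15 to 16.8 ± 3.75 CPM (log2 fold change -1.11 ± 0.18, edgeR adjusted p = 0.00646). Over the list of angiopoietin-like proteins and lipoprotein lipases, 15 of 17 genes were tested. Of these 3 rose, 3 fell and 9 did not pass, at a median log2 fold change of -0.00112. Angptl2 fell by 1.11 on the log2 scale, a call lost without control replicate 1, control replicate 3 or mutant replicate 1. Hepatic lipase, Lipc (77.9 ± 3.18 to 123 ± 11.9 CPM), and Apoa5 (1010 ± 33.6 to 1570 ± 64.0 CPM), whose product favours lipolysis, rose, and neither was called at library totals, where 0 genes of the list were called higher and 8 lower. Adipocytes are a main source of ANGPTL4 and lipoprotein lipase outside the liver, and of 8 adipocyte markers all 4 that were tested fell, with summed levels of 158 to 183 TPM in the controls and 16.2 to 34.5 TPM in the mutants. Those 4 were Cidec (100 TPM on average in the controls), Cfd (33.9 TPM), Fabp4 (21 TPM) and Plin4 (17.4 TPM), of which fatty hepatocytes are also known to express Cidec and Plin4. The defining adipocyte markers were at or near 0 in the controls, with Adipoq and Lep at 0, Plin1 at 0.0612 TPM and Retn at 0.0469 TPM on average.

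The fetuin genes were nearly equal in their response. Ahsg had 5170, 5700 and 5690 TPM in control replicates 1 to 3 and 5890, 5290 and 5810 TPM in mutant replicates 1 to 3, so that the groups overlapped on this scale. After TMM scaling it rose from 4651 ± 236 to 7212 ± 110 CPM (SD, n = 3 each), 1.55-fold, a log2 fold change of 0.63 ± 0.09 (SE, edgeR adjusted p = 0.00423). Fetub had 422, 399 and 400 TPM in the controls and 413, 438 and 413 TPM in the mutants, also overlapping, and rose 1.57-fold after TMM scaling, a log2 fold change of 0.65 ± 0.09 (SE, edgeR adjusted p = 0.00413). Both calls were lost at library totals, where the log2 fold changes were 0.24 and 0.25 (edgeR adjusted p = 0.0732 and 0.0593), and on log2(TPM + 1), where they were 0.04 and 0.05 (limma adjusted p = 0.744 and 0.547). Both genes were thus higher relative to the typical gene, while their share of all transcripts differed by less than the spread between libraries.

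Ahsg and Fetub are neighbours on chromosome 16, on the plus strand with 18884 bases between them. Ahsg (ENSMUSG00000022868.6) spans bases 22891277 to 22899449 and shares 62 of its 2197 exonic bases with the antisense gene Gm30505, and Fetub (ENSMUSG00000022871.13) spans 22918334 to 22939778. The histidine-rich glycoprotein gene Hrg follows 11293 bases after Fetub, and the kininogen genes Kng2 and Kng1 lie beyond it. Hrg rose from 725 ± 48.7 to 1050 ± 75.2 CPM (log2 fold change 0.53 ± 0.10, edgeR adjusted p = 0.0114), and limma on log2(TPM + 1) gave -0.06 instead. Kng1 (log2 fold change 0.34 ± 0.10, edgeR adjusted p = 0.0525) and Kng2 (-0.11 ± 0.12, edgeR adjusted p = 0.614) did not pass, and as close relatives they may share reads. Of the list of these neighbours and fetuin partners, 8 of 10 were tested, with 1 higher, 0 lower and 7 not passed, and 3 were called lower at library totals.

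Selenop was the most abundant of the 9 transcripts in the controls. It had 5400, 5810 and 6010 TPM in control replicates 1 to 3 and 3620, 3760 and 3170 TPM in mutant replicates 1 to 3, without overlap. On the TMM scale it had 6857 ± 325 and 6366 ± 757 CPM (SD, n = 3 each) and did not pass, with a log2 fold change of -0.11 ± 0.11 (95% interval -0.36 to 0.15, edgeR adjusted p = 0.584). At library totals it was called lower, with a log2 fold change of -0.50 (edgeR adjusted p = 0.0115), where 31.5% of all genes were called lower. On log2(TPM + 1) it was also called lower, at -0.71 (limma adjusted p = 0.00184), where 63.6% of all genes were. Selenop (ENSMUSG00000064373.12, chromosome 15, bases 3268547 to 3280508, plus strand) shares 439 of its 2842 exonic bases with Ccdc152 on the opposite strand, which had 37.2 to 45.8 TPM in the controls and 18.2 to 32.0 TPM in the mutants, small beside Selenop.

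Selenoprotein P needs the machinery that inserts selenocysteine, and most of its genes did not pass. Of 30 genes for selenoprotein synthesis, selenoprotein P receptors and other selenoproteins 28 were tested, 3 rose, 3 fell and 22 did not pass, with a median log2 fold change of 0.21. Sephs2, which makes the selenium donor for selenocysteine, rose from 692 ± 30.8 to 1030 ± 71.5 CPM (log2 fold change 0.58 ± 0.09, edgeR adjusted p = 0.00657). Selenoo and Selenos rose by log2 fold changes of 0.43 and 0.42. All 3 increases changed direction with limma on log2(TPM + 1), to -0.02 for Sephs2, -0.17 for Selenoo and -0.18 for Selenos. The call of Selenoo was lost without control replicate 1, control replicate 3 or mutant replicate 1, and that of Selenos without any single library except mutant replicate 2. Gpx4, the glutathione peroxidase that protects membrane lipids, fell from 362 ± 32.7 to 240 ± 35.8 CPM (log2 fold change -0.59 ± 0.13, edgeR adjusted p = 0.0199), a call lost without control replicate 2, control replicate 3, mutant replicate 1 or mutant replicate 3. At library totals 0 genes of the list were called higher and 8 lower.

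Inhbe had 61.4, 63.1 and 55.8 TPM in control replicates 1 to 3 and 26.3, 28.1 and 20.7 TPM in mutant replicates 1 to 3, a clear separation with little spread within the groups. After TMM scaling it fell 1.58-fold, from 208 ± 15.1 to 132 ± 24.0 CPM (SD, n = 3 each), a log2 fold change of -0.66 ± 0.14 (SE, edgeR adjusted p = 0.0192). The call of Inhbe was lost without control replicate 1 (adjusted p = 0.0634), control replicate 2 (0.067) or mutant replicate 1 (0.0661). Its log2 fold change was -1.06 at library totals (edgeR adjusted p = 0.00169) and -1.24 on log2(TPM + 1) (limma adjusted p = 0.000542). Inhbe (ENSMUSG00000047492.5) is on chromosome 10, bases 127348857 to 127354411, minus strand, and Inhbc, which encodes the related activin βC subunit, lies on the same strand with 1910 bases between the genes. Inhbc had 54.3 ± 7.14 and 74.3 ± 9.62 CPM and did not pass (edgeR adjusted p = 0.0613, log2 fold change 0.45 ± 0.14), with a value of -0.14 on log2(TPM + 1).

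Among 14 tested genes of 17 for activin and inhibin subunits, receptors and antagonists, 0 rose, 1 fell and 13 did not pass, with a median log2 fold change of -0.10. The one that fell was Fst, which encodes the activin-binding antagonist follistatin, itself a liver-secreted protein. Fst had 4.45, 4.99 and 3.76 TPM in the controls and 1.11, 0.872 and 0.393 TPM in the mutants, and fell by 1.86 ± 0.37 on the log2 scale (edgeR adjusted p = 0.0164). Without control replicate 1 its adjusted p was 0.0517, and without control replicate 2 it was 0.0581. Inhbb (log2 fold change -1.10, edgeR adjusted p = 0.0797) and the receptor gene Acvr2b (1.08, edgeR adjusted p = 0.11) did not pass. At library totals 5 of the list were called lower.

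Lect2 had 156, 176 and 203 TPM in control replicates 1 to 3 and 80.8, 82.1 and 105 TPM in mutant replicates 1 to 3, so the groups did not overlap in TPM. After TMM scaling it had 70.4 ± 8.62 and 53.5 ± 7.90 CPM (SD, n = 3 each), and control replicate 1 and mutant replicate 3 met at 62.1 CPM. The log2 fold change of -0.40 ± 0.14 did not pass (95% interval -0.71 to -0.08, edgeR adjusted p = 0.0968). It passed at library totals (-0.80, edgeR adjusted p = 0.00444), at library totals without the Mup genes (-0.61, edgeR adjusted p = 0.0172) and on log2(TPM + 1) (-0.99, limma adjusted p = 0.00149). Lect2 (ENSMUSG00000021539.9) lies on chromosome 13, bases 56542464 to 56548502, minus strand. Of the 3 tested genes of 5 LECT2 receptors, 0 rose and 0 fell, and 2 were called lower at library totals.

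**Figure D2:**
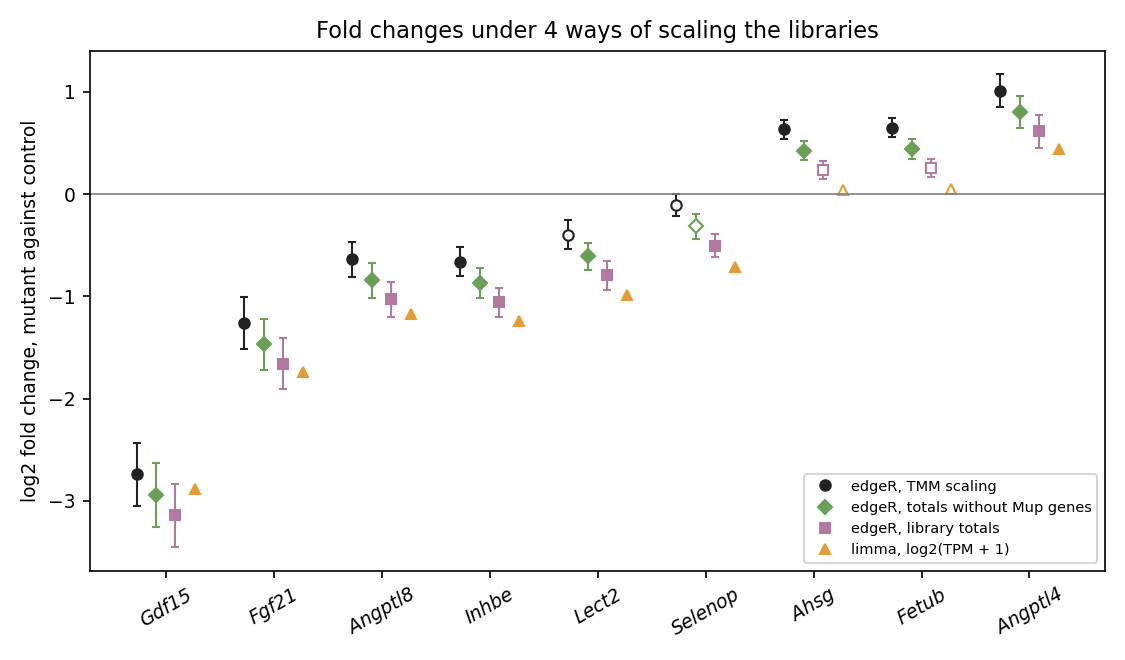
Log2 fold change of each gene, mutant against control, under TMM scaling, library totals without the Mup genes, library totals, and limma on log2(TPM + 1), with bars of 1 standard error where edgeR gives one and filled symbols for an adjusted p under 0.05. Gdf15, Fgf21, Angptl8 and Inhbe are below 0 and Angptl4 above 0 under all 4, while Ahsg and Fetub come close to 0 on TPM.

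The order of the levels, on the TPM scale, changed at few places. In the controls it was Selenop, Ahsg, Fetub, Lect2, Angptl4, Inhbe, Angptl8, Fgf21 and Gdf15, with means from 5740 TPM at the top to 27.5 TPM at the bottom. The library ranges overlapped between Selenop and Ahsg, between Angptl4 and Inhbe, and along the series Angptl8, Fgf21 and Gdf15, so these neighbours were not separated by the spread over libraries, although Selenop was above Ahsg and Angptl4 above Inhbe within each control library. In the mutants Ahsg (5660 TPM) stood above Selenop (3520 TPM) and Angptl4 (96.5 TPM) above Lect2 (89.4 TPM), the latter pair with overlapping ranges. The last 3 genes, which overlapped in the controls, were separated in the mutants at 15.6 to 17 TPM for Angptl8, 7.49 to 11.1 TPM for Fgf21 and 2.40 to 3.31 TPM for Gdf15. All 9 genes together took 1.14% to 1.25% of all TPM in the controls and 0.964% to 1.01% in the mutants.

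Ratios within a library do not depend on the scaling between libraries, and 4 were compared by exact permutation (two-sided), for which 0.1 is the smallest p that 3 libraries a group allow. Inhbe to Inhbc was 2.18-fold lower in the mutants, with log2 ratios of 0.426, 0.499 and -0.0361 in control replicates 1 to 3 and -0.594, -0.75 and -1.15 in mutant replicates 1 to 3 (exact permutation p = 0.1, adjusted 0.133). Lect2 to Ahsg was 2.05-fold lower and Selenop to Ahsg 1.68-fold lower, both without overlap between the groups and with the same exact permutation p of 0.1 (adjusted 0.133). After TMM scaling Ahsg itself was called higher (log2 fold change 0.63), while Selenop (-0.11) and Lect2 (-0.40) did not pass. A lower ratio to Ahsg therefore does not show by itself that Selenop or Lect2 fell. Fetub to Ahsg overlapped between the groups, with log2 ratios of -3.76 ± 0.126 and -3.75 ± 0.135 (SD, n = 3 each, exact permutation p = 0.6, adjusted 0.6), a difference of 0.01 whose sign turned on leaving out single libraries.

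**Figure D3:**
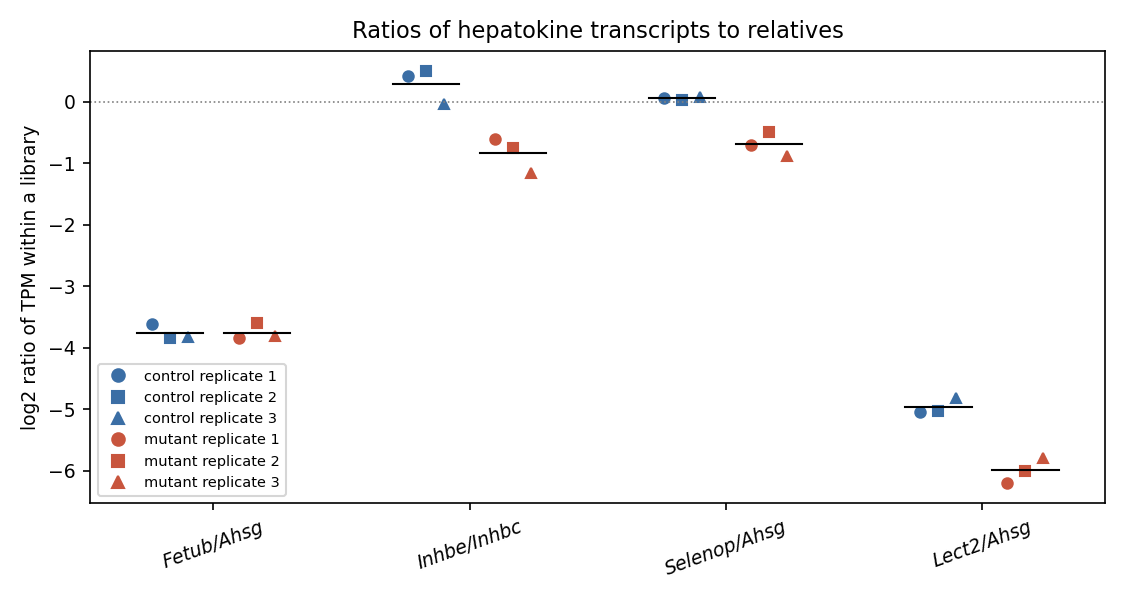
Log2 ratio of TPM within each library for 4 pairs of genes, with control libraries in blue, mutant libraries in red and a black bar at each group mean. The Inhbe to Inhbc, Selenop to Ahsg and Lect2 to Ahsg ratios are lower in all 3 mutants than in any control, and the Fetub to Ahsg ratios overlap.

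Genes listed for the integrated stress response, the pathway that acts through ATF4 and its element TGATGNAA, were called in both directions. The list also holds endoplasmic reticulum genes. Apart from Asns, the genes called higher were of that kind, namely Hspa5, Herpud1 and Sdf2l1. Of 30 genes 27 were tested: 4 were called higher and 2 lower, 21 did not pass, and the median log2 fold change was -0.00185. Asns, the asparagine synthetase and a classical ATF4 target, rose from 1.90 ± 0.464 to 28.1 ± 15.3 CPM (log2 fold change 3.89 ± 0.40, edgeR adjusted p = 0.00103). It had 1.80, 1.35 and 2.24 TPM in the controls and 29.2, 9.34 and 14.8 TPM in the mutants, a rise in every mutant with mutant replicate 1 highest. Atf3, a stress-induced transcription factor, fell by 3.23 ± 0.51 on the log2 scale (edgeR adjusted p = 0.00628), with 4.54, 12.8 and 3.79 TPM in the controls and 0.600, 0.367 and 0.534 TPM in the mutants. The endoplasmic reticulum genes Herpud1 (232 ± 26.2 to 515 ± 141 CPM) and Sdf2l1 (10.1 ± 2.11 to 19.7 ± 2.94 CPM) rose, and Sdf2l1 was no longer called without control replicate 1 (adjusted p = 0.0503). Atf4, Ddit3 and Trib3, named after their values were seen, did not pass, with log2 fold changes of -0.20, -0.15 and 0.03. In TPM, Atf4 had 53.8 to 59.6 in the controls and 31.9 to 32.4 in the mutants. At library totals 3 genes of the list were called higher and 9 lower.

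PPARα factors and targets, which include other genes that respond to fatty acids as Fgf21 and Angptl4 do, moved in both directions. Of 24 tested genes 10 rose and 4 fell, 10 did not pass, the median log2 fold change was 0.31, and at library totals 4 were called higher and 7 lower. The fatty acid hydroxylases Cyp4a31 and Cyp4a10, near relatives that may share reads, rose by log2 fold changes of 1.68 and 1.41, and the peroxisomal enzyme gene Ehhadh by 1.29. Cd36, a fatty acid transporter, fell by 3.14 on the log2 scale. Angptl4 thus lay on the side of the Cyp4a genes and Fgf21 on the side of Cd36.

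Lipogenic and carbohydrate response genes, to which Angptl8 is known to belong by its control through SREBP-1c and ChREBP, mostly fell where they passed. Of 19 genes 18 were tested, 1 rose, 6 fell and 11 did not pass, with a median log2 fold change of -0.54, against -0.64 for Angptl8. Scd1, the stearoyl-CoA desaturase, fell by 2.71 ± 0.33 on the log2 scale and Srebf1, which encodes SREBP-1, by 0.61 ± 0.11 (edgeR adjusted p = 0.00216 and 0.0115). Acacb and Acaca, the acetyl-CoA carboxylases, fell by 0.87 and 1.04. The call of Acacb was lost without control replicate 1 or control replicate 2. That of Acaca was lost without control replicate 1, control replicate 3, mutant replicate 1 or mutant replicate 2.

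Other genes of liver-secreted hormones and carriers were also called in both directions. Of 34 such genes 33 were tested, 14 rose, 6 fell and 13 did not pass, with a median log2 fold change of 0.23, and at library totals 7 were called higher and 11 lower. Igfbp2, an IGF-binding protein, rose by a log2 fold change of 2.33, Igf1 by 0.92 and Apom, the sphingosine-1-phosphate carrier of HDL, by 1.07. Enho, which encodes the energy-balance peptide adropin, rose from 3.35 ± 1.22 to 29.3 ± 9.53 CPM (log2 fold change 3.13 ± 0.33, edgeR adjusted p = 0.00103). It had 5.40, 3.61 and 7.77 TPM in the controls and 43.8, 20.3 and 33.3 TPM in the mutants, without overlap. These 4 genes had the smallest p of the list. The 6 genes that fell, named after their values were seen, were Lcn2 (log2 fold change -2.37), Orm2 (-2.36), Gpnmb (-2.17), Hgf (-1.43), Serpinb1a (-1.06) and Ctsd (-0.37).

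**Figure D4:**
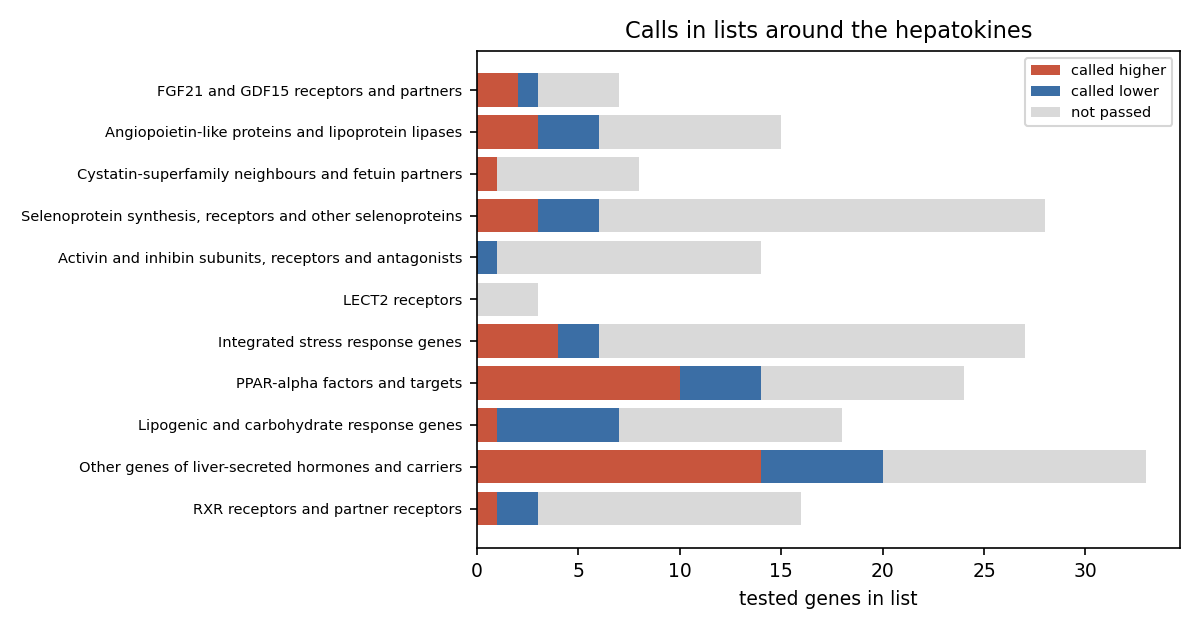
Number of tested genes in each list called higher (red), called lower (blue) or not passed (grey) in the mutants by edgeR with TMM scaling at an adjusted p under 0.05. The list of other liver-secreted hormones and carriers has 14 higher and 6 lower of 33, the lipogenic list 1 higher and 6 lower of 18.

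The targeted gene and its relatives were measured in the same libraries. Rxra had 181, 170 and 152 TPM in the controls and 174, 119 and 148 TPM in the mutants, overlapping, and did not pass after TMM scaling (edgeR adjusted p = 0.0724, log2 fold change 0.40 ± 0.13), with -0.20 by limma on log2(TPM + 1), and without mutant replicate 2 it was called higher (0.50, edgeR adjusted p = 0.0388). A total per gene cannot show a deleted exon or an altered codon, so it does not check the labels. Of 16 tested receptors of the RXR family and its partners, 1 rose, 2 fell and 13 did not pass. Pparg fell by 1.43 ± 0.19 on the log2 scale and Nr1i2, which encodes PXR, rose by 0.71 ± 0.12 (edgeR adjusted p = 0.00292 and 0.0073), and Nr1i2 was not called at library totals. Rxrg fell by 0.93, a call that was lost without any single library except mutant replicate 2, and Rxrb did not pass (edgeR adjusted p = 0.0692, log2 fold change 0.35).

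For each called hepatokine the 3 genes with the most similar profile were found among 10998 genes, by the root mean square distance between centred log2 CPM over the 6 libraries. Gdf15 was nearest to Col1a1 (distance 0.15), Cd63 (0.22) and Col1a2 (0.28), of which Col1a1 and Col1a2 encode the chains of type I collagen. Fgf21 was nearest to Foxf1 (0.087), Tnfrsf19 (0.11) and Mamdc2 (0.13). Foxf1 itself did not pass (edgeR adjusted p = 0.0606), and in the mutants Foxf1 averaged 0.41 TPM and Mamdc2 0.64 TPM. Angptl4 was nearest to Cep85 (0.11), Aopep (0.12) and Cyp4f15 (0.13), a cytochrome P450. Angptl8 was nearest to Sh3glb2, Ankrd13b and Prkca (0.056 to 0.075), and Inhbe to Prnp, Dvl2 and Maged2 (0.05 to 0.072). Of these, Ankrd13b, Prkca, Dvl2 and Maged2 did not pass. Fetub was nearest to Ubac1, Sephs2 and Paics (0.037 to 0.049), and Ahsg to Prdx4, Tra2b and Nags (0.02 to 0.047). Among the 9 genes themselves the closest pair was Fetub with Ahsg, at 0.11. Genes with a similar fold change lie near each other by this distance, as Col1a1 (log2 fold change -2.72) does to Gdf15 (-2.74). A shared control or cell source was not tested.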

How the data were processed

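Per the submitters' processing notes, reads were processed with cutadapt and STAR on mm10; no source used here names the gene quantifier, annotation or strandedness. The authors deposited a table of estimated counts and a table of TPM, each with 55487 genes and a column for each of 6 libraries (0 columns left over). No nonzero deposited count was whole within 1e-06, and over 10983 genes count and TPM differed only by a factor per gene and one per library (largest deviation 5.7e-10), so the counts are scaled TPM and not reads. Libraries were grouped by title and genotype label. The labels do not state that libraries are separate animals, and the p-values then reflect only the spread between these libraries, which may be technical. No libraries were near-duplicates (chi-square of at least 35 per gene).

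After rounding, counts entered edgeR 4.0.16 (R 4.3.3) with filterByExpr, TMM and the quasi-likelihood F-test on group, adjusted by Benjamini-Hochberg over 14286 genes at a threshold of 0.05. Standard errors were taken from the F statistic. The procedure was tested on simulated data. There it called 55.8% of genes given a log2 change of 1 in size and 85.9% of those given 2. Of its 144 calls 6 were false. A gene that did not pass may therefore still have changed. Alternatives used limma 3.58.1 on log2(TPM + 1) or log2(TPM + 0.1), where a TPM of 1 was needed in 3 libraries or no filter was set, DESeq2 1.42.0, other scalings and filters, a replicate block, and each library left out. Coordinates are from GENCODE mouse release 21 (99.5% of identifiers found) and upstream sequences from RefSeq. The genes and lists were chosen with earlier results of these data known. Named were all 9 genes, up to 4 genes per list with the smallest p, the Rxr genes and 3 similar genes per called hepatokine (log2 CPM with a prior count of 2, mean TPM of at least 1); genes outside this rule were chosen after their values were seen. Some planned ratios are not reported here.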

Additional observations from a re-analysis of the deposited data

How the results depend on the processing

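Over 17 alternatives the log2 fold changes of the 9 genes gave 153 values, of which 0 turned direction, 124 kept direction and side of the threshold, 19 were no longer called and 10 became called. Genes called higher among the 9 numbered 1 at library totals, 1 in limma on log2(TPM + 1), 1 on log2(TPM + 0.1) and 0 on log2(TPM + 1) with no filter, against 3. Leaving out 1 library gave 4 to 6 of the 9 genes called, 1 to 3 of them lower. Over all genes, 4794 were called at library totals, 7579, 7526 and 6581 in the same 3 limma fits, and 882 (without mutant replicate 1) to 1514 (without mutant replicate 3) on leaving out a library, against 1923. Of 193 tested genes of the pathway lists, 126, 126 and 101 were called in the limma fits and 36 to 60 without a library, against 67. The cause of these shifts was not tested. The difference in the log2 ratio of Fetub to Ahsg, mutant minus control, was 0.0132 over all libraries and ranged from -0.0643 (mutant replicate 2 left out) to 0.086 on leaving out a library, and also turned to -0.0248 and -0.0216 when control replicate 2 or 3 was left out.

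Of 1001 values for 59 other named genes, 825 kept direction and side of the threshold, 104 were no longer called, 42 became called and 30 turned direction. These turned in limma on log2(TPM + 1), log2(TPM + 0.1) and log2(TPM + 1) with no filter or at library totals. In that order the limma values were -0.199, -0.2 and -0.199 for Rxra, -0.236, -0.248 and -0.236 for Rxrb, and -0.142, -0.144 and -0.142 for Inhbc. They were -0.0644, -0.0645 and -0.0644 for Hrg, -0.257, -0.258 and -0.257 for Kng1, and -0.344, -0.348 and -0.344 for Furin. They were -0.0212, -0.0213 and -0.0212 for Sephs2, -0.166, -0.17 and -0.166 for Selenoo, and -0.176, -0.179 and -0.176 for Selenos. Library totals turned Rxrb (-0.0475), Kng1 (-0.0603) and Furin (-0.148).

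With the replicate number as a block, 1558 genes were called and 7 of the 9 genes. Angptl8 was no longer called (edgeR adjusted p = 0.0615) and Lect2 was (0.0449). Deviations from the group means correlated at 0.0167, -0.00322 and 0.0634 between libraries of the same number, the last being the highest of all pairs. Control replicate 1 correlated best with mutant replicate 2 (0.0556). Values this near 0 cannot decide whether libraries of the same number were paired, and the labels do not say so. The count of Gdf15 reads behind its 2.4 to 3.31 TPM in the mutants cannot be known, since the deposited counts are not reads.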

Other observations

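The 3 control libraries differed among themselves in the stress hormones, and not in 1 direction. Control replicate 2 had the highest Gdf15 (38.8 TPM), Angptl4 (89.8 TPM) and Atf3 (12.8 TPM) and the lowest Fgf21 (25.4 TPM) of the controls. Control replicate 3 had the lowest Gdf15 (18 TPM), Angptl4 (56.9 TPM) and Atf3 (3.79 TPM) and the highest Fgf21 (43.3 TPM). The mutant libraries did not repeat this order, since mutant replicate 2 had the highest of both Fgf21 (11.1 TPM) and Gdf15 (3.31 TPM) and the lowest Angptl4 (93.5 TPM) and Atf3 (0.367 TPM). These orders were noticed in the data and were not tested.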
